A study of Drosophila melanogaster with 3 samples.

Results

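The X chromosome peaks were the 1688 binding regions on the X among the 8513 regions (19.8%) that passed the authors' reproducibility threshold (irreproducible discovery rate, IDR) in a ChIP-seq experiment on the Drosophila melanogaster transcription factor Methoprene-tolerant (Met). Within that list they were set apart by chromosome alone, so number, signal, width and position along the chromosome played no part in the split. The list itself holds the 8513 strongest peaks of the pooled replicates, and its X members were chosen with earlier results of these data known. The X peaks were compared with the 6825 peaks on the autosomal arms 2L, 2R, 3L, 3R and 4. The 3 biological replicates formed 1 group: whole white prepupae, male and female pooled and of unstated age in hours, from the transgenic line Met-GFP, in which a stably expressed Met is fused at its C-terminal end to GFP, a fluorescent tag, and was precipitated with an antibody to it. No group without the tag, without the hormone or of a single sex was compared here. The labels used here do not say which sequence drives the transgene or how many animals made a pool. A whole animal mixes all its tissues, so a peak found in many cells weakly and a peak found in few cells strongly cannot be told apart.

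Met is a bHLH-PAS transcription factor and a receptor for juvenile hormone, the hormone that keeps insect larvae from metamorphosing. It acts with partner proteins such as Taiman, and in Drosophila it shares much of its role with its paralogue Germ cell-expressed (Gce). The white prepupa marks the onset of metamorphosis, at a pulse of the steroid ecdysone. Drosophila males carry a single X, and in males the MSL complex, built on the noncoding RNAs roX1 and roX2, raises transcription of X-linked genes. Both Met and gce are themselves X-linked.

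The 1635, 1702 and 1709 X peaks in the replicate lists (replicates 1, 2 and 3, each taken to its 8513 strongest peaks) carry the replicate spread below, written as mean ± SD with n = 3. The depth of the libraries is unknown. An exact sign-flip permutation test over 3 replicates, 2-sided, cannot give a p below 0.25, so no comparison of X with autosomes could pass 0.05, adjusted or not. Each of the 14 comparisons is therefore read by how many replicates shared a direction and by whether X lay outside all 4 large autosomal arms in each list. Another 18 comparisons, of finer location classes and motifs, were chosen after the values were seen.

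The sequences under the 6 strongest X summits are shown first, because they show what the strongest sites looked like: adenine and thymine rich, with no E-box (CACGTG) and no C-box (CACGCG), the cores of juvenile hormone response elements described in other insects. Each line gives the plus strand from 50 bases before to 50 bases after the summit (RefSeq Release 6 assembly, the dm6 build), and capitals mark a match to any of the 8 motifs searched, here only GATAA.
Ugalt, X:2703840-2703940: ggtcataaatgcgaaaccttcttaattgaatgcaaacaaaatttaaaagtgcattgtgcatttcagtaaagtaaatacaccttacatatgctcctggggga
Ptp10D, X:11623044-11623144: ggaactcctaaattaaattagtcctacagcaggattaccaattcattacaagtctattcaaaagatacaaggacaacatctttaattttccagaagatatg
CG32772, X:4910326-4910426: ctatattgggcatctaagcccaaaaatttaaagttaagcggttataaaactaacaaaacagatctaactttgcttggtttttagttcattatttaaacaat
lncRNA:CR44619 (in an exon of lncRNA:Vinr), X:12751304-12751404: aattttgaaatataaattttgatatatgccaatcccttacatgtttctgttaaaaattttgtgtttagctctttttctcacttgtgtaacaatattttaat
lncRNA:CR44619 (498 bp downstream of its TSS), X:12752315-12752415: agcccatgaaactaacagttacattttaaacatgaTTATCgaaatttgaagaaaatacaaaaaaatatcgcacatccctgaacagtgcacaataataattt
LPCAT, X:9579234-9579334: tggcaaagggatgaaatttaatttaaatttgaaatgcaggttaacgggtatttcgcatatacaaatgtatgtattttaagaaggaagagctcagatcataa

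For contrast, the next lines are the 3 strongest X peaks that did hold an E-box or a C-box, chosen after their motifs were known. CG7872, rank 221 of the whole IDR list, had a C-box and a CAGGTAG in a 3′ UTR. The sdk promoter, rank 295, had an E-box and a GATAA, and one more summit in lncRNA:CR44619, rank 303, had an E-box.
CG7872, X:15579742-15579842: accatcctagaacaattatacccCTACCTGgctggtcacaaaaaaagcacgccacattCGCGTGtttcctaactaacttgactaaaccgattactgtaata
sdk, X:686626-686726: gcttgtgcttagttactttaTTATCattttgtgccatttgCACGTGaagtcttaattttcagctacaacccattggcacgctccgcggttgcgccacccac
lncRNA:CR44619 (in its own exon), X:12754455-12754555: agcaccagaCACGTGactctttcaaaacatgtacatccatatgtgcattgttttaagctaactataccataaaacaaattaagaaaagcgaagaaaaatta

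The strongest X peak lay 38 bp upstream of a transcription start site (TSS) of Ugalt, which encodes a transporter of UDP-galactose. Its signal, the authors' own value on a scale that differs between lists, was 1512, 1556 and 1444 in replicates 1, 2 and 3, and it ranked 6, 5 and 5 among all peaks. The next was in an intron of Ptp10D, a receptor tyrosine phosphatase gene, 1079 bp downstream of the nearest TSS, with a signal of 1135, 1242 and 1036. It was also the summit nearest to Met itself, 1814 bp beyond the end of the gene (X:11616124-11621280), which held no summit in its body, its promoter or any of the 3 replicate lists' promoter windows. The labels used here do not say whether genomic sequence carried by the transgene reaches that site, and its part in the result was not tested. After it came a peak in an intron of CG32772, with a signal of 1095, 1115 and 1016.

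Among the 20 strongest X peaks, 12 lay in introns, 7 within 500 bp of a TSS, 1 in an exon and 0 in intergenic sequence. A pair of them belonged to the neighbouring noncoding genes lncRNA:Vinr and lncRNA:CR44619, at ranks 25 and 29. Those near a TSS included Gapdh2, a glycolytic enzyme gene (rank 32, 163 bp upstream), Ptpmeg2, a phosphatase gene, pdgy, which encodes an acyl-CoA synthetase, bves, and ph-p, a Polycomb group gene (rank 33). The neighbouring copy ph-d is closely similar in sequence, so reads at ph-p may be shared and that peak is uncertain. Among those in introns were Raf, the kinase of the Ras pathway (rank 43), norpA, the phospholipase C of vision (rank 53), LPCAT (rank 31), CG3726 (rank 51), prage, Pits and Tlk, a Tousled-like kinase gene (rank 71). Hr4, a nuclear receptor gene of the ecdysone response, had 2 of the 20, at ranks 61 and 92, 9967 and 5805 bp from the nearest TSS. The peak nearest to asRNA:CR44512 (rank 47) lay in an intron of Zw, the gene of glucose-6-phosphate dehydrogenase. All 20 overlapped a peak in each of the 3 replicate lists. By rank within each list, Gapdh2 stood at 56, 36 and 28 in replicates 1, 2 and 3, and bves at 197, 104 and 79. Raf, at 69, 37 and 38, was also lowest in replicate 1, whereas Tlk, at 72, 73 and 87, was lowest in replicate 3. At the other end, the weakest X peaks of the IDR list, near CG15472, brk and Tlk, had ranks of 8505, 8508 and 8512 and signals of 98.8, 98.8 and 98.7.

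**Figure D1:**
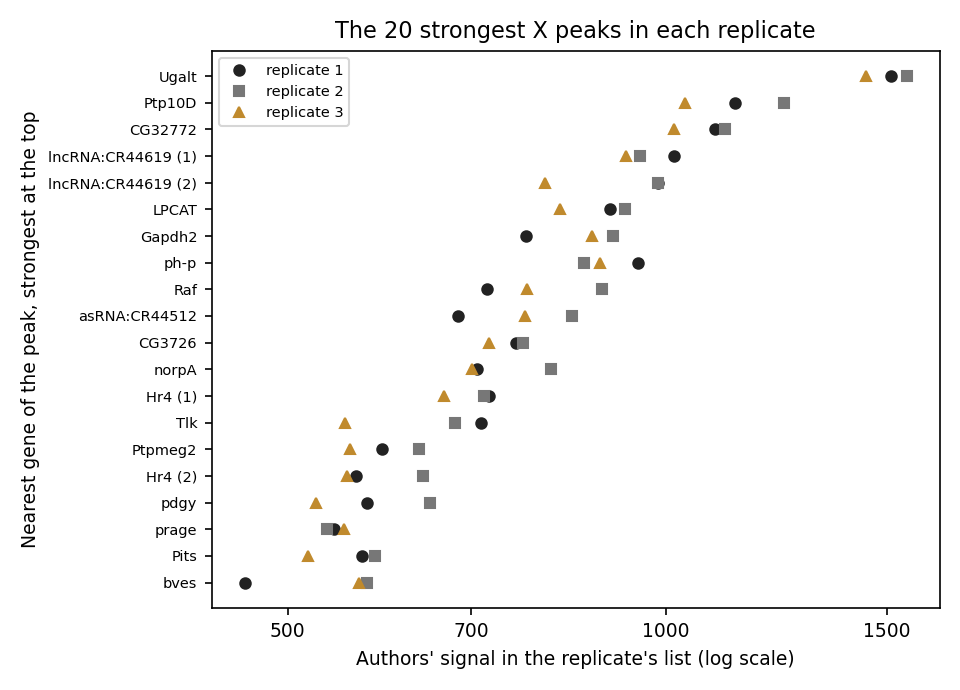
The authors' signal (log axis) of the 20 strongest X peaks in each replicate list, ordered from the strongest at the top by rank in the IDR list and named by nearest gene. Circles are replicate 1, squares replicate 2 and triangles replicate 3. Ugalt stands apart at 1444 to 1556. The scale of the signal differs between lists, so the symbols compare peaks within a replicate and not replicates with each other.

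The X carried more peaks per length than any autosomal arm. The IDR list gave 71.7 peaks per Mb on X and 61.9 on the autosomes, where the 4 large arms ranged from 55.5 on 2R to 67.6 on 3L. Replicates 1, 2 and 3 gave 69.4, 72.3 and 72.6 on X against 62.3, 61.6 and 61.6, a difference of 9.61 ± 2.16 peaks per Mb (SD, n = 3). X was above all 4 large arms in 3 of 3 replicate lists (exact sign-flip permutation test, p = 0.25, the smallest possible). Within 100 kb bins that held at least 5 starts of protein-coding genes, an alternative added after the data were seen, the difference was 3.60 ± 2.26, from 77.9 on X and 74.3 on the autosomes, still in the same direction in 3 of 3. Such bins made up 78.2% of X and 72.3% of the autosomes. Over the whole relaxed lists, of 30000 peaks each, the difference was 8.50 ± 15.4 peaks per Mb and X was higher in 2 of 3 replicates, since replicate 1 had 17.0% of those peaks on X and the others 18.8% and 18.6%. The share of all peaks on X was 20.1% in the authors' IDR list in the older build dm3.

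Per 100 protein-coding genes the gap was wider, since X had 2196 such genes in 23.5 Mb. The IDR list gave 76.9 peaks per 100 genes on X and 58.1 on the autosomes, and the replicate lists 76.6 ± 1.86 and 58.1 ± 0.403 (SD, n = 3), with X above all 4 large arms in 3 of 3 lists. Along X, a 100 kb bin held a median of 6 peaks, and 27 of 236 bins (11.4%) held none, against 21.7% of the autosomal bins. The fullest X bin held 28 peaks, over CG43658 and its neighbours at X:17500001-17600000, and the next held 25, over Tlk and Mnt. Neighbouring X summits were a median of 3956 bp apart in the IDR list, against 4073 bp on the autosomes. The median spacing within X was shorter than on the autosomes in 3 of 3 replicate lists, 3944 ± 144 against 4275 ± 90.2 bp, but over the whole relaxed lists it was longer by 12.0 bp.

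**Figure D2:**
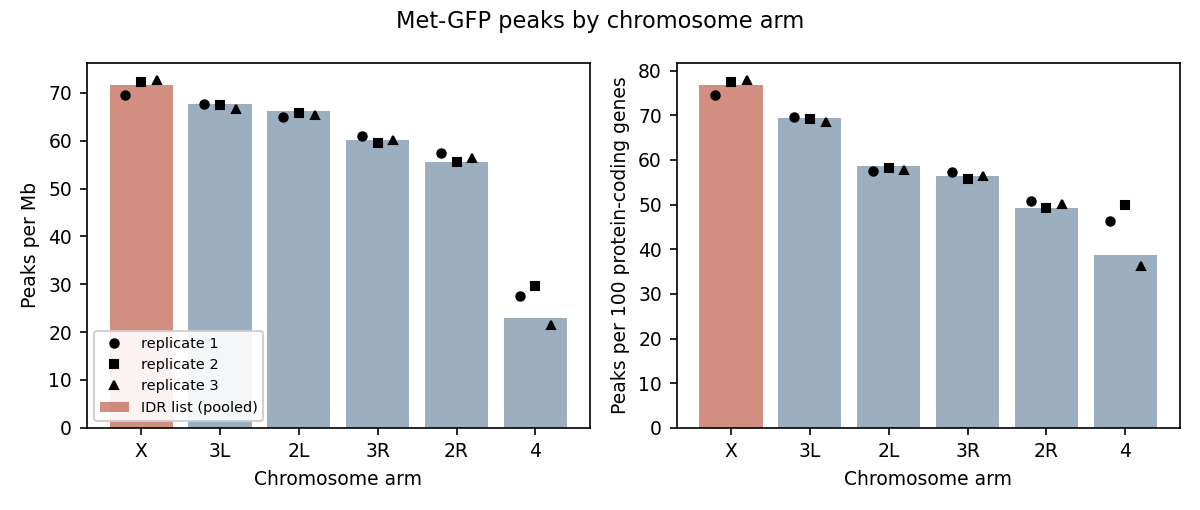
Peaks per Mb (left) and per 100 protein-coding genes (right) on each chromosome arm. Bars are the IDR list and symbols the replicate lists. X, in red, is highest in both panels, at 71.7 and 76.9, and chromosome 4 lowest.

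The X peaks were neither stronger nor weaker than autosomal peaks beyond the replicate spread. The median signal in the IDR list was 194 on X and 194 on the autosomes. The median X peak stood at percentile 50.1 of the list. In replicates 1, 2 and 3 the X median was 49.4, 50.9 and 49.1, a difference from the autosomes of −0.29 ± 1.07 percentile points (SD, n = 3), higher on X in 1 of 3 (exact sign-flip permutation test, p = 0.75). Over the whole relaxed lists the X median was higher in 3 of 3, by 3.62 ± 2.02 points. The strongest 10% of the list took in 10.3% of X peaks and 9.93% of autosomal peaks, and the difference of 0.172 ± 0.459 points in the replicate lists was smaller than its SD. Over the whole relaxed lists the strongest 10% took in 10.9% of X peaks and 9.80% of autosomal peaks. That difference was 1.08 ± 0.207 points, higher on X in 3 of 3. At the very top X had 1 of the 10 strongest peaks, 3 of the 20 strongest and 10 of the 50 strongest, and from 500 peaks on its share lay between 19.8% and 20.8%. The share was less settled at short lengths, where replicate 1 had 14% of its 50 strongest peaks on X and the other two 24% each. Presence in the replicates was alike as well: 1244 X peaks (73.7%, Clopper-Pearson 95% interval 71.5 to 75.8) overlapped a peak in all 3 replicate lists, against 73.5% of autosomal peaks. Intervals here and below cover counting error only, and neighbouring peaks are not independent.

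**Figure D3:**
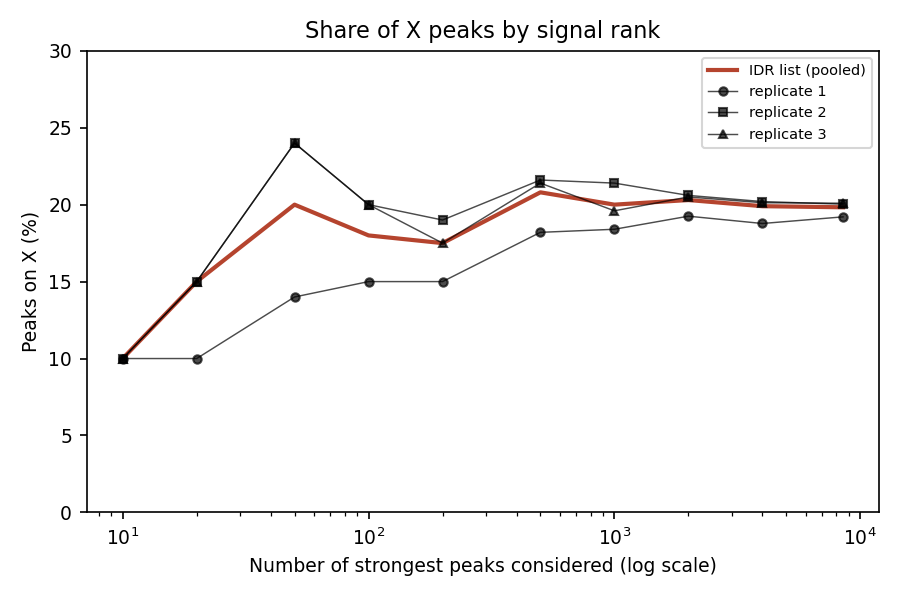
Percent of peaks on X (vertical axis) among the strongest 10 to 8513 peaks of each list (log axis). The red line is the IDR list and the black symbols are the replicate lists. The share lies between 19.8% and 20.8% from 500 peaks on in the IDR list, with replicate 1 lowest from 20 peaks on.

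The median width was 440 bp on X and on the autosomes, a fixed width that the authors' caller gave to most weaker peaks, so it carries little information. Fewer X peaks were at exactly that width, 54.2% against 58.8%, and more were narrower, 41.4% against 37.7%. In the replicate lists 73.7% ± 1.10 of X peaks and 76.2% ± 0.494 of autosomal peaks had their list's standard width (SD, n = 3), lower on X in 3 of 3 but below all 4 large arms in 2 of 3. The widest X peak, 875 bp, was the one over lncRNA:Vinr. Overlapping intervals were counted separately by the authors, and 87 X intervals overlapped their neighbour.

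X summits lay in introns more often and in intergenic sequence less often than autosomal summits. Introns held 915 X summits, 54.2% (Clopper-Pearson 95% interval 51.8 to 56.6), against 42.8% of autosomal summits. Intergenic sequence held 175, 10.4% (8.95 to 11.9), against 22.0%. Replicates 1, 2 and 3 put 51.4%, 53.2% and 52.1% of X summits in introns, and 40.7%, 42.3% and 40.7% of autosomal ones, a difference of 11.0 ± 0.411 points (SD, n = 3). The intergenic shares were 9.91%, 9.69% and 10.2% on X and 21.3%, 21.3% and 20.2% on the autosomes, a difference of −11.0 ± 0.858 points. In 3 of 3 lists X was above all 4 large arms for introns and below all 4 for intergenic sequence, with exact sign-flip permutation p = 0.25 for each. In the gene-rich bins the differences were 9.50 and −9.84 points.

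The chromosomes also differ in how much of each class they hold. Introns made up 43.4% of the bases of X and 38.6% of the autosomes, and intergenic sequence 22.8% and 28.4%. Relative to these shares of bases, introns held 1.25 times as many X summits as their length alone would give and 1.11 times as many autosomal summits. Intergenic sequence held 0.454 and 0.775 times as many. Expressed per Mb of intron the replicate lists gave 86.1 ± 3.39 summits on X and 66.0 ± 1.33 on the autosomes (SD, n = 3), above all 4 large arms in every list. Per Mb of intergenic sequence they gave 31.1 ± 1.16 and 45.6 ± 1.52, but here X was not outside the autosomal arms: in the IDR list the lowest large arm had 31.1 per Mb and X 32.5. Counted this way, X lay within the range of the large arms in 3 of the 4 lists. The intergenic summits on X were nearer to a TSS, with a median distance of 2849 bp against 3528 bp, nearer on X in 3 of 3 replicate lists.

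**Figure D4:**
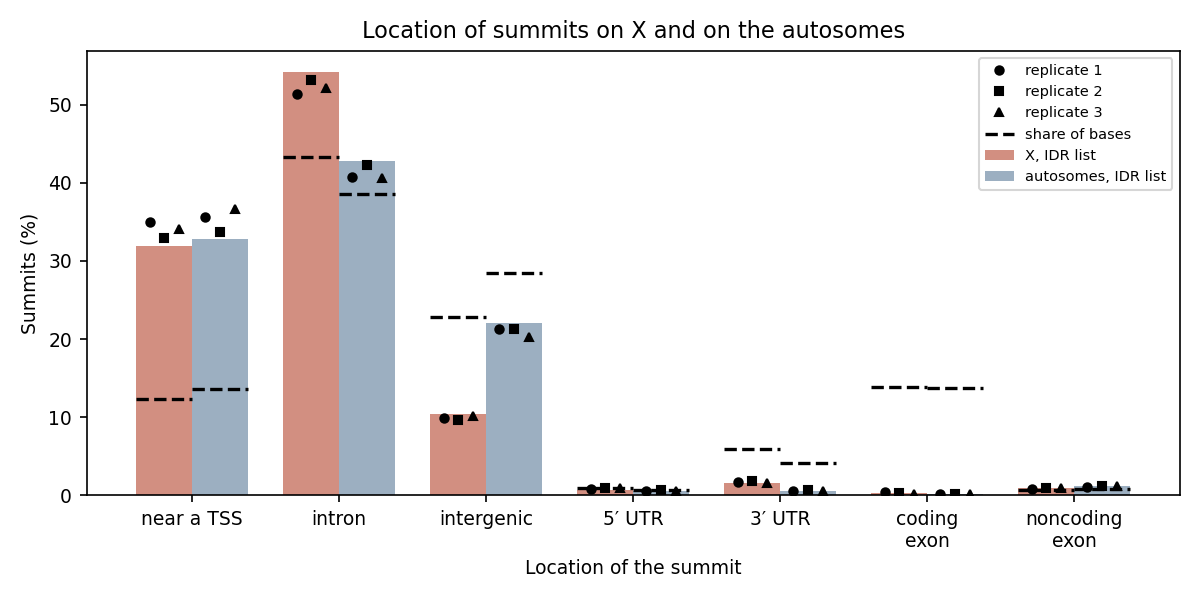
Percent of summits (vertical axis) in each location class on X (red) and on the autosomes (blue). Bars are the IDR list, symbols the replicate lists, and dashed lines the share of the chromosomes' bases in the class. Introns stand at 54.2% on X and 42.8% on the autosomes, and intergenic sequence at 10.4% and 22.0%.

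The share of summits near a TSS was similar on X and the autosomes, whereas their number per Mb of such sequence was higher on X. Within 500 bp of a TSS lay 539 X summits, 31.9% (29.7 to 34.2), and 32.8% of autosomal summits. In the replicate lists the X share was lower in 3 of 3, with a difference of −1.33 ± 1.10 points (SD, n = 3), but it lay within the range of the large arms, and its size depended on the settings. With TSSs of protein-coding genes alone the difference was 0.018 points, over the whole relaxed lists 0.733, with a window of 250 bp −3.36 ± 1.21 and among the 4256 strongest peaks of each list −2.90 ± 0.273. Sequence near a TSS made up 12.4% of X and 13.6% of the autosomes. Per Mb of it the replicate lists gave 196 ± 3.61 summits on X and 161 ± 6.99 on the autosomes (SD, n = 3), a difference of 35.6 ± 3.62. The IDR list gave 185 on X and at most 156 on a large autosomal arm, and X was above all 4 large arms in each replicate list as well. Summits near a TSS mostly lay upstream of it, 75.9% on X and 76.1% on the autosomes. In the replicate lists this upstream share was lower on X in 3 of 3, 74.0% against 75.7%, a difference of −1.67 ± 1.19 points (SD, n = 3). It was below all 4 large arms in 1 of 3. The median position of summits near a TSS, compared after the values were seen, was −142 bp on X and −117 bp on the autosomes. In replicates 1, 2 and 3 it was −137, −147 and −125 bp on X against −111, −119 and −101 bp, farther upstream on X in 3 of 3, with a difference of −26.0 ± 2.00 bp (SD, n = 3).

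Exons held 3.50% of X summits and 2.43% of autosomal summits. X was above all 4 large arms in 3 of 3 replicate lists, with a difference of 1.34 ± 0.177 points, but over the whole relaxed lists the difference was 0.0125 points. The gap lay in 3′ UTRs, which held 26 X summits, 1.54% (1.01 to 2.25), against 36 autosomal summits, 0.527% (0.370 to 0.730). Replicates 1, 2 and 3 gave 1.65%, 1.88% and 1.64% on X and 0.538%, 0.677% and 0.544% on the autosomes, and the difference was 1.14 ± 0.0582 points (SD, n = 3). Per Mb of 3′ UTR the IDR list gave 18.7 summits on X and 7.92 on the autosomes, which is 0.260 and 0.128 times what their share of bases would give. The strongest of the 26 were in the 3′ UTRs of CG7872 (rank 221, shown above with its C-box), APC7 (rank 265), stas (rank 389), and NetB, a Netrin axon guidance gene (rank 976). Lsd-2, a lipid droplet gene, had 3 of them, at ranks 2352, 3238 and 5478. Myc, the growth regulator, had a summit at rank 5716 where its 3′ UTR and CG12535 overlap, and another at rank 6489 lay beyond its end, within CG12535. Coding exons held 5 X summits, in Ubr1, CG10962, su(w[a]), Dlic and the region of Bx and HisRS.

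Intronic X summits within protein-coding genes sat in long genes: 78.2% of them were in genes over 20 kb, against 69.4% on the autosomes, and the median host gene was 39.3 kb on X and 34.7 kb on the autosomes. The replicate lists gave 77.2% ± 0.470 and 68.1% ± 0.438 (SD, n = 3), higher on X in 3 of 3. X also had more such sequence, as genes over 20 kb covered 42.5% of its bases and 37.0% of the autosomes' bases. The X-linked gene with most summits in its body and the 2 kb upstream was kirre, which encodes an immunoglobulin-type protein of muscle founder cells, with 40 summits over 394 kb and none within 1 kb of its own TSSs. CG43658 followed with 27, then CG1677 and Tlk with 23 each. Mnt, which encodes the partner of Max that opposes Myc, had 19 summits at a gene length of only 29.9 kb. Counted over the gene with its 2 kb upstream, that was 5.96 per 10 kb, the densest of the 10 genes with most summits. Raf had 18, CG12535, CG32816 and mamo 17 each, and Hr4 had 16. In all, 27 X-linked genes had 10 or more summits, 1.23% of the X-linked genes against 0.706% of autosomal ones.

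Long genes without any summit were found too. Of 198 X-linked genes over 20 kb, 40 had none, and the 4 longest were dpr8 (140 kb), Sh, the Shaker potassium channel gene (139 kb), CG42340 (101.2 kb) and CG45002 (97.7 kb). The share with at least 1 summit was 79.8% for X-linked genes of that length and 68.7% for autosomal ones.

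A promoter peak (its summit no more than 1 kb from a TSS) was found at 579 of 2196 X-linked protein-coding genes, 26.4%, against 21.4% of 11749 autosomal genes and 22.2% of all 13945 genes. Replicates 1, 2 and 3 gave 27.4%, 27.7% and 28.4% on X and 25.0%, 22.2% and 24.0% on the autosomes. The difference was 4.10 ± 1.56 points (SD, n = 3), and X was above all 4 large arms in 3 of 3 lists (exact sign-flip permutation test, p = 0.25). The excess held within gene length classes. For genes under 5 kb the IDR list gave 19.0% on X and 16.2% on the autosomes, for genes of 5 to 20 kb 40.5% and 35.3%, and for genes over 20 kb 52.0% and 44.8%. In the replicate lists the differences in these classes were 2.41 ± 1.59, 2.78 ± 2.49 and 7.20 ± 0.601 points, so the first 2 were under 2 SD and that of the longest genes was many times its SD. Among noncoding genes, 19.3% of X-linked and 19.0% of autosomal ncRNA genes had a promoter peak, as did 4 of 24 X-linked tRNA genes (16.7%, against 20.7% on the autosomes) and 8 of 31 X-linked snoRNA genes (25.8%, against 21.0%).

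**Figure D5:**
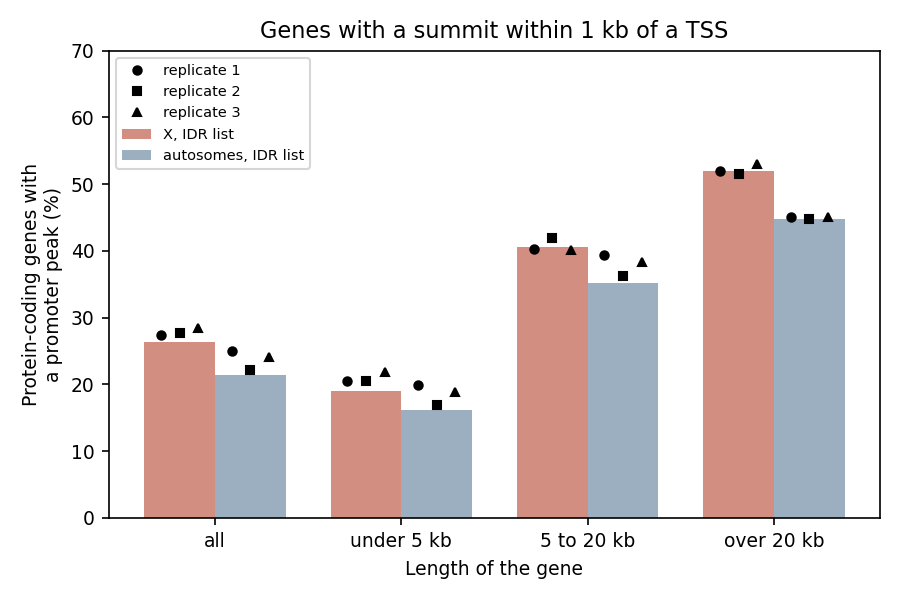
Percent of protein-coding genes with a promoter peak (vertical axis), for all genes and by gene length, on X (red) and the autosomes (blue). Bars are the IDR list and symbols the replicate lists. X is higher in each class, with the widest gap for genes over 20 kb, at 52.0% and 44.8%.

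The lists of genes below are described against those shares of 26.4% for X and 21.4% for the autosomes, with no test, since the lists were drawn up with results of these data known. The machinery of X dosage compensation that is X-linked had 0 of 3 promoter peaks: lncRNA:roX1 (X:3857230-3862697), lncRNA:roX2 (X:11579065-11580432) and mof, the acetyltransferase gene of the MSL complex. No summit lay in their bodies either, and lncRNA:roX1 had a promoter peak in replicate 2 alone, at rank 8352. Among autosomal members of the list 3 of 7 had one. The 6 X-linked genes of sex determination had 1, at Sxl, the master switch of female development. Its promoter peak ranked 1279, and 1216, 870 and 2433 in replicates 1, 2 and 3, and its summit window held a C-box. The genes whose X dose sets Sxl, namely sisA, sc, upd1 and run, had none, nor did the splicing gene snf, against 7 of 12 autosomal members.

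Of the 8 X-linked genes of ecdysone and juvenile hormone action, 5 (62.5%) had a promoter peak, close to the 62.2% of the list's 37 autosomal genes. Strongest was nej, the acetyltransferase and coactivator CBP, at rank 531 (614, 436 and 655 in replicates 1, 2 and 3), though its nearest TSS was that of lncRNA:CR42657. The usp promoter, which belongs to the partner of the ecdysone receptor, had rank 2038 (1890, 2953 and 1769). At gce, the paralogue of Met, the rank was 2356 (2141, 2359 and 2880), nearest to the antisense gene asRNA:CR44429, and 5 summits lay in its body. The early ecdysone gene br had 6 summits in its body and upstream 2 kb and a promoter rank of 3342. Hr4 had a promoter peak at rank 3368, far weaker than its intronic summits at 61 and 92. No promoter peak was called at Met, at Cyp18a1, which inactivates ecdysone, or at phtm, which acts in its synthesis, apart from phtm in replicate 2 at rank 7912.

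Cytoplasmic ribosomal protein genes had the highest X share among the lists, 13 of 15 (86.7%), with 14, 13 and 14 in replicates 1, 2 and 3. On the autosomes 49 of 78 (62.8%) had a promoter peak, with 57, 50 and 56 in the same replicates. RpS10b ranked 827 (796, 1424 and 610 in replicates 1, 2 and 3), RpS28b 828, with the summit nearest to l(1)G0320, RpL22 1678 and RpS5a 1820. The summit 27 bp upstream of a TSS of RpS28b itself ranked 1778 (1564, 2546 and 1598). RpL35 and RpL36 had none in the IDR list, but a peak in replicate 3 and replicate 1 respectively. RpS14a and RpS14b lie side by side and are nearly identical, so their separate peaks are uncertain. Proteasome genes, a list that also holds variant subunit genes such as Prosbeta2R1 and Rpn13R, had 0 of 6 on X and 4 of 42 on the autosomes. Rpt3, Prosalpha4 and Rpt6 were called in 1 replicate each.

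Signalling genes (Ras, Notch and JAK-STAT) had 6 of 14 on X against 1 of 8 on the autosomes. The sgg promoter, of the kinase GSK3, ranked 119 (153, 145 and 99 in replicates 1, 2 and 3). Raf ranked 298 (247, 473 and 260), the kinase gene Dsor1 3464, and N, which encodes Notch, 4080. Among the unbound were the JAK-STAT genes dome and hop. Of the neuronal genes 5 of 9 on X (55.6%) had a promoter peak and 1 of 10 on the autosomes. Most of these X-linked genes were over 20 kb, a length at which 52.0% of all X-linked genes had a promoter peak. Most of the autosomal ones were shorter, so the 2 counts are not matched for gene length. The pan-neuronal gene elav ranked 129, with a signal of 481, 558 and 481 in replicates 1, 2 and 3, norpA 1960, Ten-a, a synaptic adhesion gene, 2521, and dlg1 3865. The channel genes Sh, cac and para had no promoter peak. These lists are short, and each was described rather than tested.

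Growth genes had 2 of 4 on X, Mnt (rank 1644) and fzr (rank 3265), against 6 of 12 on the autosomes. Myc had no promoter peak but 6 summits in and upstream of it, the strongest in an intron at rank 364. For adhesion and muscle 1 of 6 had a promoter peak on X, Act5C, a cytoplasmic actin gene, at rank 251 (267, 262 and 284). That summit was nearest to the TSS of lncRNA:CR45668, 224 bp upstream of it, and the summit 38 bp from a TSS of Act5C ranked 7141. In the circadian list sgg was bound and per was not. The classical visible marker genes had 3 of 19, below the X background: sn, which encodes fascin, at rank 1078, Bx at 5250 and f at 8108, the last in replicate 3 only among the replicate lists. The markers w, y, v and m had no summit at all. Genes of the larval glue and salivary gland (0 of 6) and of yolk and eggshell (0 of 10) had no promoter peak on X, and the glue genes none in any replicate list.

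Base composition at the summits was similar on X and the autosomes. The bases within 50 bp of X summits had a mean G+C of 33.5%, against 33.6% on the autosomes and 42.5% over the whole X. The dip was narrow, with a mean of 32.9% at the X summits and 43.5% and 44.2% at 250 bp to each side. In the replicate lists the difference of 0.181 ± 0.399 points was smaller than its SD. It was 0.537 ± 0.299 with 100 bp to each side and 0.495 ± 0.402 among the 4256 strongest peaks, higher on X in 3 of 3 each time, and −0.599 ± 0.175 over the whole relaxed lists, lower in 3 of 3.

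Sequence motifs were counted on both strands within 50 bp of each summit, and beside them in consecutive windows of the same length over the whole chromosome. The windows were not matched for base composition, and mean G+C was 33.5% at X summits against 42.5% over the whole X. How far base composition accounts for the differences from all windows, here and below, was not tested. E-boxes (CACGTG) were in 10 X summit windows, 0.592% (0.284 to 1.09), and in 0.835% of autosomal ones, both below the 1.13% and 1.17% of all windows. C-boxes (CACGCG) were in 32 X windows, 1.90% (1.30 to 2.67), against 1.30% on the autosomes and 1.99% and 1.80% of all windows. In replicates 1, 2 and 3 C-boxes stood at 2.20%, 1.59% and 2.11% on X and 1.15%, 1.18% and 1.38% on the autosomes, higher on X in 3 of 3. E-boxes were lower on X in 3 of 3, with a difference of −0.288 ± 0.0306 points (SD, n = 3). The 42 X peaks with either box included 24 near a TSS and 14 in introns, among them RpS19a (rank 1869), norpA (rank 2506), Nrg (rank 7118), and Ilp6, an insulin-like peptide gene (rank 3411). None of the 20 strongest X peaks, and 3 of the 100 strongest, held a box.

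The CA repeat CACACACA was in 2.07% of X windows and 1.35% of autosomal ones, but it is also commoner on X as a whole, 3.01% against 1.90%, so relative to the chromosome the summits held it 0.689 and 0.711 times as often. GAGAGAGA, bound by GAGA factor, was in 0.533% of X (9 windows) and 0.747% of autosomal windows in the IDR list, but higher on X in 2 of 3 replicate lists. It was in 0.780% and 0.519% of all windows, IDR ratios of 0.683 and 1.44. In replicates 1, 2 and 3 the ratio was 1.02, 0.903 and 1.27 on X and 1.29, 1.53 and 1.67 on the autosomes. Among the promoter elements, TATCGATA, the DREF element, was in 0.711% and 0.733% of summit windows and in 0.349% and 0.259% of all windows, ratios of 2.04 on X and 2.83 on the autosomes. GGTCACACT, known as motif 1, was in 4 X windows, 0.237%, and 0.396% of autosomal windows, ratios of 1.93 and 4.30 to all windows. GATAA, the core bound by GATA factors, was in 23.1% and 23.8%, lower on X in 3 of 3 replicate lists, with a difference of −1.71 ± 0.435 points. All windows held it in 17.3% on X and 18.4% on the autosomes, so relative to the chromosome the IDR ratio was 1.33 on X and 1.29 on the autosomes, and X was higher in replicate 1 and lower in replicates 2 and 3. CAGGTAG, bound by Zelda, was in 8 X windows, 0.474%, and 0.410% of autosomal windows, higher on X in 2 of 3 replicate lists. All windows held it in 0.490% on X and 0.542% on the autosomes, IDR ratios of 0.966 and 0.756. The motifs overlap in part, since a CACACACA run can adjoin either box, and a match is a description of letters and no measure of binding.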

How the data were processed

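The data were peak lists from ChIP-seq of GFP-tagged Met in 3 replicates of white prepupae. Per the labels, chromatin was sonicated to fragments of 200 to 800 bp, and the builds are dm3 and dm6. For the aligner and the peak caller, names and versions: not given in the sources used here. Deposited by the authors were 10 lists: per build, a relaxed list of 30000 peaks per replicate, another from pooled replicates, and an IDR-thresholded list. The deposited signal value per peak depends on library depth, which is unknown, so it was compared only within a list. The deposited position of each summit was used for location. The IDR list equals the strongest 8513 of the pooled peaks. From each replicate list the 8513 strongest peaks were kept, and mitochondrial peaks were then dropped.

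Genes came from Ensembl release 115 (BDGP6.54), without pseudogenes and transposable elements, and sequence from the RefSeq Release 6 assembly. A summit within 500 bp of a TSS counted as near it, and any other went to the first class that fitted, from 5′ UTR through coding exon, 3′ UTR, exon of a noncoding gene and intron to intergenic. Promoter peaks had a summit within 1 kb of a TSS. Differences of X minus autosomes were tested by exact sign-flip permutation over replicates, in Python 3.11.15 with NumPy 2.4.6, pandas 2.3.3 and SciPy 1.17.1, and the code was tested on simulated data. Peaks overlapping by at least 1 bp were called shared. Nothing in the labels says that the replicates share an origin beyond the line. Named genes were, by rule, the nearest genes of the 20 strongest X peaks, all X-linked genes of the 3 lists on dosage compensation, sex determination and hormones, up to 4 with the strongest promoter peaks of each other list, the 10 with most summits and the 4 longest with none. Genes and peaks named beyond that rule, such as those of the 3′ UTR, coding exon and box peaks, were chosen after their values were seen. The members and the 13 gene lists were chosen with earlier results of these data known. Alternatives covered list length, build, TSS and promoter windows, base composition window, overlap rule, chromosome 4, gene-rich bins, gene length and leaving out each replicate.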

Additional observations from a re-analysis of the deposited data

How the results depend on the processing

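Values are X minus autosomes over the replicate lists. Of 108 alternatives, 96 kept the direction and 12 turned it, all in results where X was not outside all 4 large arms in 3 of 3 lists. The 96 include 7 for the median width, whose main difference was 0, so there was no direction to keep. Among these, the 4256 strongest peaks gave −2.17 ± 3.75 bp. The mean differences in intron share, intergenic share, density and promoter share kept their direction under each alternative run, and none could pass a threshold, but the density difference over the whole relaxed lists was 8.50 ± 15.4 and turned in replicate 1. Over the whole relaxed lists the signal percentile became 3.62, the share near a TSS 0.733, the upstream share 0.958, G+C −0.599 and the median spacing 12.0 bp. In the 4256 strongest peaks of each list the signal percentile was 0.801, and with fewer peaks the density difference was 4.48 per Mb and that of promoter shares 1.72 points. With TSSs of protein-coding genes only, the share near a TSS was 0.018. The share of the strongest 1% differed by −0.071. Requiring overlap of 0.5 of both intervals, the share found in all replicates was −0.738. Leaving out each replicate gave ranges of −0.908 to 0.0772 for the signal percentile, −0.0636 to 0.395 for the share of the strongest 10% and −0.00513 to 0.392 for G+C. Without a replicate the smallest possible p is 0.5. The causes were not tested. Density in dm3 was not run, as no dm3 genome was used; the share of peaks on X in dm3, 19.8% against 19.8% in dm6 over the replicate lists, was given instead. Each difference was taken within a replicate, so the main test is already paired by replicate. No paired analysis between groups was possible because there was 1 group. Depth is unknown, and limits how far the weakest peaks and the replicate differences can be read.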
